A study of Mus musculus with 2 samples.

Results

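The enzymes that lengthen and desaturate fatty acids were followed in liver RNA of 2 groups of mice. WT mice were wild type animals of the C57B6J strain. CREBH-Tg mice, on the same C57B6J background, overexpress an active form of CREBH from a human cDNA, mostly in liver. CREBH is a liver-enriched transcription factor that is released from the endoplasmic reticulum membrane and acts on genes of lipid metabolism. Both groups had been kept on the HFHS diet for 12 weeks, so the comparison is between genotypes on that diet and there was no group on another diet. RNA of each genotype was pooled and read on 1 one-colour Agilent array. The number, sex and age of the mice in each pool and the promoter driving the transgene are not given in the sources used here. The genes described are the elongases Elovl1, Elovl2, Elovl3, Elovl5, Elovl6 and Elovl7 and the desaturases Fads1, Fads2, Scd1 and Scd2. They were chosen by name, and a probe was assigned to a gene through its transcript accession. All 10 genes had a probe that was well above background on both arrays, which held 13881 such named genes in all. They were read by 11 probes, Elovl1 by 2 and each other gene by 1.

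Fatty acid synthase releases palmitate, which membrane enzymes of the endoplasmic reticulum then remodel. Elongases add carbons from malonyl-CoA to an acyl-CoA, in the first and rate-limiting step of a cycle that other enzymes complete. Desaturases place a double bond, drawing electrons through cytochrome b5. One route turns palmitate into stearate and oleate and is known to be induced in liver by insulin through SREBP-1c, by sugar through ChREBP and by the oxysterol receptor LXR. Another route starts from the essential fatty acids of the diet and makes long polyunsaturated acids such as arachidonate and docosahexaenoate.

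Each genotype has 1 array and hence no replicate, so the spread between mice or pools is unknown, nothing was tested against it, and differences are described by size. Signals are the deposited processed intensities. Log2 signals are relative to the 75th percentile of each array, which was an intensity of 333 for WT and 309 for CREBH-Tg, and a log2 ratio is CREBH-Tg minus WT. Levels of different genes cannot be ranked, since each is read by its own probe. Measures of error came from 2 sources. Probes spotted at least 5 times gave the spot noise, whose 95% range for a log2 ratio (1.96 SD) depends on brightness. With the genes divided into 3 classes of the same size by signal, it was 0.095 for bright genes, 0.17 for those of middle signal and 0.40 for dim ones. The scanner software's own error estimate is wider and gave a 95% range of 0.40 for each bright gene here. For these genes it was close to a fixed fraction of the intensity, and not a spread measured between spots. Neither source covers differences between animals, pools, labelling reactions or hybridisations. Over all genes the median log2 ratio was 0.027, and the middle 50% lay between -0.10 and 0.14. All 8 hepatocyte markers were well above background on both arrays, with a median log2 ratio of 0.070. The mouse Creb3l3 transcript, which encodes CREBH, had a log2 ratio of -0.0041. The transgene is a human cDNA, so this probe does not check the genotype labels.

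None of the 10 genes was 2-fold apart between the genotypes in either direction. All 4 genes of the polyunsaturated branch were higher in CREBH-Tg (56.2% of all genes). Elovl6 and Scd1, which act on palmitate and stearate, were lower (43.8% of all genes). Among all genes measured, 0.663% were at least 2-fold higher in CREBH-Tg and 0.670% at least 2-fold lower, which was 92 and 93 genes, or 115 and 77 after scaling to the median. At 1.5-fold, 0 of 10 genes were higher (2.33% of all genes) and 1 of 10 was lower (2.23% of all genes), the dim Elovl7. The log2 ratio was above 0 for 7 of the 10 (56.2% of all genes) and below 0 for 3 (43.8%). Beyond the range of spot noise, 5 genes were higher (21.0% of all genes), namely Elovl2, Elovl3, Elovl5, Fads1 and Fads2. Lower by more than that range were 3 genes (13.2% of all genes), Elovl6, Elovl7 and Scd1. These shares pool the 3 signal classes. All of these genes but Elovl7 are in the brightest class, where the range is narrowest. In that class 36.9% of genes were at least as far from 0 as Fads2, in either direction. By the wider range of the scanner software, 2 were higher, Elovl2 and Elovl3 (4.34% of all genes), and 2 lower, Elovl6 and Elovl7 (3.49%). Some of these calls were lost under another processing. Fads1 fell within the spot noise under quantile normalization (0.091 against 0.095), as did Elovl5 under loess (0.092) and Elovl7 under normexp. Elovl6 fell within the software's range after scaling to the median (-0.33), and Elovl7 under quantile normalization, loess and normexp. After scaling to the median, Elovl1 and Scd2 were beyond the spot noise at 0.13 and 0.17. The median log2 ratio was 0.11 for the 6 elongases and 0.11 for the 4 desaturases. The elongases spanned the wider range, from -0.84 to 0.58, against -0.25 to 0.16 for the desaturases.

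**Figure D1:**
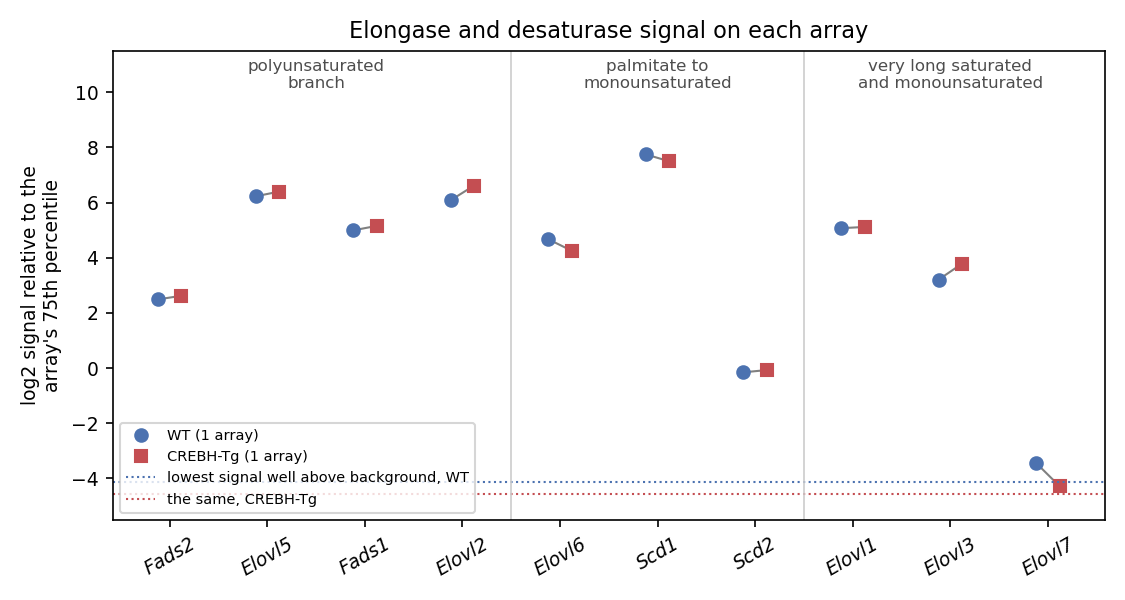
Log2 signal of each gene relative to the 75th percentile of its array (vertical axis) for the 10 genes (horizontal axis), grouped by substrate; circles are the WT array, squares the CREBH-Tg array and lines join the pair. Dotted lines mark the lowest signal well above background on each array (-4.13 for WT, -4.55 for CREBH-Tg); Elovl7 alone lies near them, and levels of different genes are not comparable.

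In the polyunsaturated branch all 4 genes were higher in CREBH-Tg liver (56.2% of all genes were above 0), Elovl2 most. Fads2, the desaturase that opens the pathway, had an intensity of 1869 in WT and 1900 in CREBH-Tg. After scaling, its log2 signals were 2.49 and 2.62, a log2 ratio of 0.13. The CREBH-Tg array was the higher one. Elovl5, which lengthens the product of Fads2, had intensities of 24890 in WT and 25989 in CREBH-Tg and log2 signals of 6.22 and 6.40. Its log2 ratio was 0.17, or 1.13-fold higher. Fads1, the desaturase whose products include arachidonate, had intensities of 10584 and 10986 and log2 signals of 4.99 and 5.15, WT first. That was a log2 ratio of 0.16, close to those of its neighbours in the pathway. Elovl2, which carries out the late elongations on the way to docosahexaenoate, stood apart from these. Its intensity was 22589 in WT and 30290 in CREBH-Tg, and its log2 signals were 6.08 and 6.62. It was 1.45-fold higher, a log2 ratio of 0.53. Among all genes 5.57% were as far from 0 in either direction, and 2.38% among the 4627 genes of the brightest class. For Elovl5, Fads1 and Fads2 the shares of the brightest class were 26.2%, 28.3% and 36.9%, so differences of that size were common on these arrays. The 3 smaller differences lay beyond the spot noise, those of Fads1 and Elovl5 not under every processing, and within the scanner software's range of 0.40, and that of Elovl2 beyond both.

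On the route from palmitate to monounsaturated fatty acids, Elovl6 and Scd1 were lower in CREBH-Tg liver and Scd2 was near equal. Elovl6, the elongase that turns palmitate into stearate, had an intensity of 8471 in WT and 5879 in CREBH-Tg. Its log2 signals were 4.67 and 4.25, a log2 ratio of -0.42, or 1.34-fold lower. This was just outside the scanner software's range of 0.40 and within it after scaling to the median, at -0.33. Of the brightest class, 4.45% of genes were as far from 0. Scd1, the main hepatic stearoyl-CoA desaturase, which makes oleate, had intensities of 71353 in WT and 55593 in CREBH-Tg. Log2 signals of 7.74 and 7.49 gave a log2 ratio of -0.25, or 1.19-fold lower. It lay beyond the spot noise and within the software's range, and 12.6% of the brightest class were as far from 0. Scd2, the isoform known best from brain and from the liver of newborn mice, had intensities of 299 and 294. Its log2 ratio of 0.082 was within the spot noise of the middle class, 0.17.

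The lowest ratio of the polyunsaturated genes, that of Fads2, was 0.38 above the higher of Elovl6 and Scd1 on the log2 scale. These genes are bright and have 1 probe each, so a scaling constant, a filter on dim probes or an average over probes cannot change that difference. Among the alternatives, quantile normalization, loess and normexp could, and they gave 0.46, 0.43 and 0.42. Under the main processing and its 10 alternatives, the lowest of Fads2, Elovl5, Fads1 and Elovl2 had log2 ratios of 0.091 to 0.22, Elovl6 of -0.48 to -0.33 and Scd1 of -0.37 to -0.16. The difference in log2 ratio between Elovl2 and Elovl6 was 0.95 (0.93 to 0.95 over the alternatives). Between the desaturases Fads1 and Scd1 it was 0.41 (0.41 to 0.46). Scd2, on the palmitate route, did not lie apart from the polyunsaturated genes, at 0.088 against 0.091 for Fads1 under quantile normalization. These groupings by substrate were made with the values known and were not tested.

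**Figure D2:**
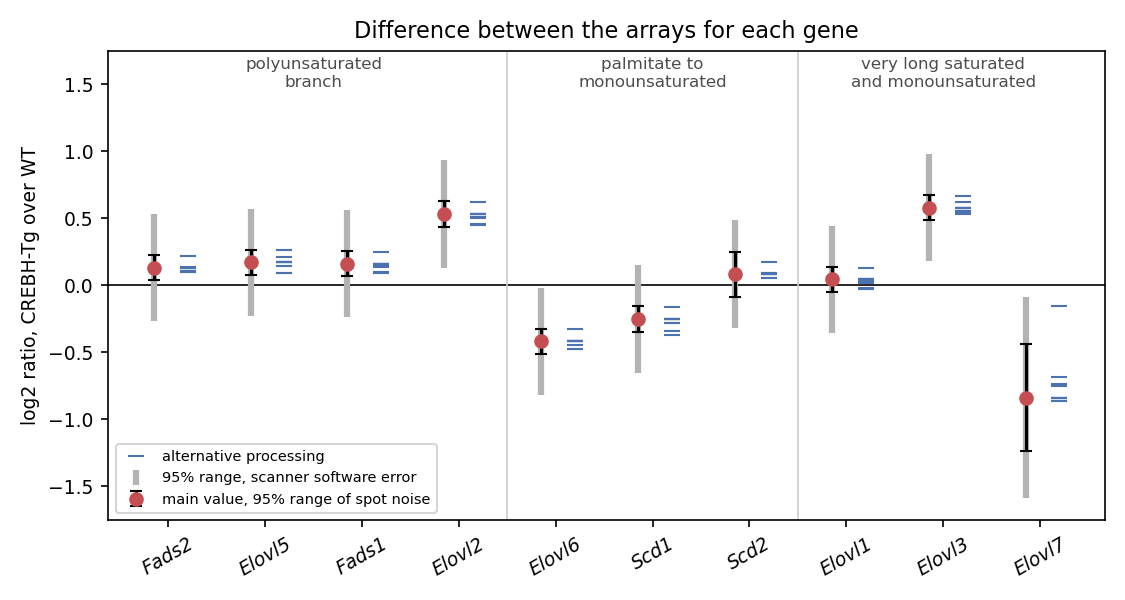
Log2 ratio of CREBH-Tg over WT (vertical axis) for each gene (horizontal axis): points are the main values, thin black bars the 95% range of spot noise, thick grey bars that of the scanner software's error and blue dashes the values under the alternative processings. Elovl2 and Elovl3 lie above 0 and Elovl6 and Elovl7 below 0 by more than both ranges in the main processing; scaling to the median brings Elovl6 to -0.33, and for Elovl7 one alternative is at -0.15.

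The elongases of very long saturated and monounsaturated chains had no common direction. Elovl1, a broadly expressed elongase that supplies chains for sphingolipids, was near equal. Its brighter probe had intensities of 11186 and 10692 and a log2 ratio of 0.044, and its dimmer probe 1107 and 1043 and a log2 ratio of 0.024. The brighter probe went to -0.029 under quantile normalization and -0.023 under loess, so Elovl1 has no direction here. Elovl3, known from brown fat, skin glands and liver, had the highest ratio of the 10 genes. Its intensity was 3075 in WT and 4257 in CREBH-Tg, with log2 signals of 3.21 and 3.79. It was 1.49-fold higher, a log2 ratio of 0.58 (0.53 to 0.67 over the alternatives), and 1.84% of the brightest class were as far from 0.

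Elovl7 had the largest difference of the 10 genes and the dimmest signal. Its intensity was 30.6 in WT and 15.9 in CREBH-Tg, with log2 signals of -3.44 and -4.28 and a log2 ratio of -0.84, or 1.79-fold lower. The scanner software's 95% range was 0.75 here, and quantile normalization (-0.74) and loess (-0.68) brought the ratio within it. The raw median signal of the spot was 78 over a local background of 54.5 in WT. In CREBH-Tg it was 54 over a local background of 51, so the spot was barely brighter than its surroundings. Normexp, a background correction that adds a fixed offset and so draws dim ratios toward 0, gave a log2 ratio of -0.15. A stricter filter on dim probes removed the gene.

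**Figure D3:**
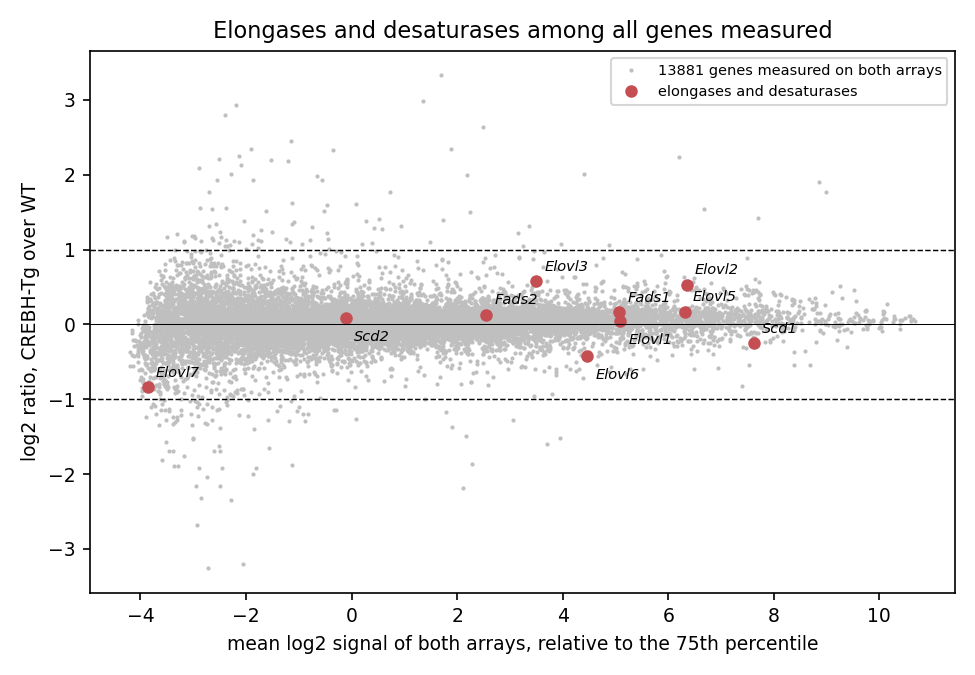
Log2 ratio of CREBH-Tg over WT (vertical axis) against the mean log2 signal of both arrays (horizontal axis) for the 13881 genes measured on both arrays (grey) and the 10 elongases and desaturases (red, named); dashed lines mark 2-fold. The named genes other than Elovl7 lie where the grey points are narrower around 0, and Elovl7 lies at the dim end, where they spread.

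Elovl3 in liver is also known for a daily rhythm and a male bias, and clock and male-biased genes are given beside it. These lists were chosen after the values were seen. Of 10 clock genes measured on both arrays, 5 were above 0 and 5 below, with Arntl at 1.12 (dim, and 0.66 under normexp), Nr1d1 at 0.28 and Per1 at -0.40. Of 6 other male-biased genes 5 were below 0 (43.8% of all genes), opposite to Elovl3, with Cyp4a12a at -1.60 and Hsd3b5 at -0.59. Time of day at sampling and the composition of the pools cannot be told apart from genotype with 1 pool each. Among the marker lists of cell types, that of adipocytes had the highest median log2 ratio. Of 6 adipocyte markers 4 were measured on both arrays and all 4 were above 0 (56.2% of all genes), at a median log2 ratio of 0.97. The median was 0.56 under normexp and 0.27 under the stricter filter on dim probes, which left 2 of them. The dim members Adipoq and Retn were farthest from 0, at 2.21 and 1.55, and at 0.99 and 0.79 under normexp. Adipoq had intensities of 27.4 and 117, and Lep and Plin1 were not well above background in WT. The summed adipocyte signal, in units of the 75th percentile, was 6.75 in WT and 8.56 in CREBH-Tg. Most of that sum came from Fabp4 and Cfd, at log2 ratios of 0.17 and 0.38. The part of adipocyte RNA in the Elovl3 difference was not tested. In bulk liver, fewer cells of a type and less RNA per cell cannot be told apart.

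By summed signal, the cholangiocyte list differed as much as the adipocyte list, in the other direction. The summed cholangiocyte signal was 1.98 in WT and 1.55 in CREBH-Tg, a log2 ratio of the sums of -0.35 against 0.34 for the adipocyte list. Each sum rests mainly on the brightest members of its list. Of 5 cholangiocyte markers 4 were measured on both arrays and 3 of them were below 0 (43.8% of all genes). Krt19 was above 0, at 0.028. The median of the list was -0.34, and -0.12 under normexp. The dim Krt7 was at -0.54 (-0.57 to -0.16 over the alternatives). Spp1, the brightest of the list, was at -0.51 with intensities of 442 and 288, and made up most of the summed signal. Epcam stayed below the background criterion in both genotypes. All 6 stellate markers were above 0 (56.2% of all genes), at a median of 0.16 and summed signals of 70.2 and 72.1, although Dcn and Reln took the other sign under 2 and 1 of the alternatives. Summed signals in WT and CREBH-Tg were 104 and 92.1 for 6 macrophage markers, 13.0 and 14.2 for 6 lymphocyte markers and 105 and 115 for 6 endothelial markers. Of the 6 lymphocyte markers 5 were above 0 (56.2% of all genes) and 1 below, at a median of 0.13. The dim T cell gene Cd3d was 2.14-fold higher, with a log2 ratio of 0.61 under normexp, and the brighter T cell gene Cd3e was at 0.093. The 6 red blood cell, glial and keratinocyte markers summed to 57.3 and 52.7. The macrophage receptor Marco had a log2 ratio of -0.95, farther from 0 than any of the elongases or desaturases. Marco was the extreme of the 6 macrophage markers, of which 4 were below 0 (43.8% of all genes) and 2 above. The median of that list was -0.065. The part of these cell types in the differences of the 10 genes was not tested.

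Among the closest relatives of the 10 genes, Fads3 was higher and Scd3 lower in CREBH-Tg liver. Fads3, Fads2 and Fads1 lie next to each other on chromosome 19, and Scd3, Scd2, Scd4 and Scd1 form a second row of neighbours on that chromosome. Fads3, a desaturase of sphingoid bases, had intensities of 142 and 181 and a log2 ratio of 0.46, beyond the spot noise of its dim class (0.33 to 0.55 over the alternatives, against a range of 0.40). All 3 Fads genes of this row were therefore above 0 (56.2% of all genes). Fads6, which lies outside both rows, was at -0.028 (-0.055 to 0.061 over the alternatives). In the other cluster, Scd3 was 1.42-fold lower at intensities of 2224 and 1449, and its 3 probes gave log2 ratios of -0.51, -0.48 and -0.67. Scd3 and Scd1 are near relatives whose probes may cross-hybridise, which leaves each value uncertain. Scd2, between them, was at 0.082, and Scd4 passed the background criterion in CREBH-Tg alone, at intensities of 22.1 and 23.1. Elovl4, an elongase of retina and skin, and Degs2 stayed below the background criterion in both genotypes. Degs1, the ceramide-forming desaturase, was 1.22-fold higher at a log2 ratio of 0.28. Of the 4 other family members measured, 2 were above 0 and 2 below, with a median of 0.13.

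Genes that supply the substrate were lower with Elovl6 and Scd1. Of 7 genes that supply malonyl-CoA and palmitate, 6 were lower by more than the spot noise (13.2% of all genes) and none higher by more than it (21.0%). The shares pool the 3 signal classes, and all 7 genes are in the brightest, where the range of spot noise is narrowest. The median log2 ratio of the 7 genes was -0.37 (-0.42 to -0.29 over the alternatives). Fatty acid synthase, Fasn, was at -0.50, with intensities of 2793 and 1830. Acetyl-CoA carboxylase, Acaca, which makes malonyl-CoA for synthesis and elongation, was at -0.42, with 9798 and 6797. The acetyl-CoA synthetase Acss2 was at -0.39, with 15452 and 10915. The ratio of Elovl6, -0.42, falls within the range of these 3 genes. Set against the 0.40 of the scanner software for the bright elongases and desaturases, Fasn and Acaca were farther from 0. Acaca was so only in part of the alternatives (-0.53 to -0.33). Acss2, Acacb at -0.37, Acly at -0.28 and Me1 at -0.21 were nearer 0 than that. None of the 7 was 1.5-fold apart by its brightest probe, and a dimmer probe of Acaca was at -0.70.

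The other steps of the elongation cycle, shared by all elongases, did not differ beyond the spot noise. The 6 genes had a median log2 ratio of 0.00015 and ran from -0.092 (the dehydratase relative Hacd4) to 0.043 (the dehydratase Hacd3), although another, dimmer probe of Hacd2 was at -0.31. The ketoreductase Hsd17b12 was at -0.044. None of the 6 has a direction here, since each took the other sign under at least 1 alternative, Hacd1 and Hacd2 under 4 each. Electron supply to the desaturases had a median of -0.020 for 6 genes. Of these, 1 was higher (21.0% of all genes) and 2 were lower (13.2%) by more than the spot noise. The cytochrome b5 gene Cyb5a was at -0.018. The cytochrome b5 reductase Cyb5r3 was at -0.17 and the mitochondrial Cyb5b at -0.16, while the reductase relative Cyb5r1 was at 0.26 (0.49 by its second probe).

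Among regulators known to act on these genes, both lipogenic factors were lower and the LXR gene Nr1h3 slightly higher. Srebf1, which encodes SREBP-1, had intensities of 1707 and 1253 and a log2 ratio of -0.34. Mlxipl, which encodes ChREBP, had 17634 and 13225 and a ratio of -0.31. Both ratios were nearer 0 than the scanner software's 0.40 for the bright elongases and desaturases. Nr1h3, which encodes LXR alpha, was at 0.17. Of the 11 regulators 3 were higher (21.0% of all genes) and 3 lower (13.2%) by more than the spot noise, and the median was -0.0041 (-0.036 to 0.085). The shares pool the 3 signal classes, and all of these regulators but Rxra are in the brightest.

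Downstream of the members, differences were small. The last shortening step of docosahexaenoate synthesis takes place in peroxisomes, and its 8 genes had a median of -0.035 (-0.073 to 0.054). Of these, the transporter Abcd3 was at -0.19, its relative Abcd2 at 0.18 and the thiolase Acaa1b at -0.12. The 10 measured genes that activate or esterify the products had a median of -0.042 (-0.11 to 0.047). The acyltransferase Lclat1 was at -0.28, the acyltransferase Agpat3, known to place docosahexaenoate in phospholipids, at 0.27 and the arachidonate-activating Acsl4 at -0.21. Of 6 ceramide synthases 4 were measured on both arrays, with a median of 0.17 (0.13 to 0.26). Cers2, the one bright member, was lower at -0.11, with intensities of 5159 and 4427, and Cers4 was at 0.22, Cers5 at 0.19 and Cers6 at 0.14. The summed signal of the list was 17.3 in WT and 16.3 in CREBH-Tg, opposite to its median. Cers3 was well above background in WT alone, at intensities of 23.8 and 4.38. With the CREBH-Tg value set to the dimmest detected signal of its array, WT was 1.68-fold higher. For a signal this dim that is not a firm lower bound. Of the genes measured on both arrays in these lists, none was 1.5-fold apart.

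**Figure D4:**
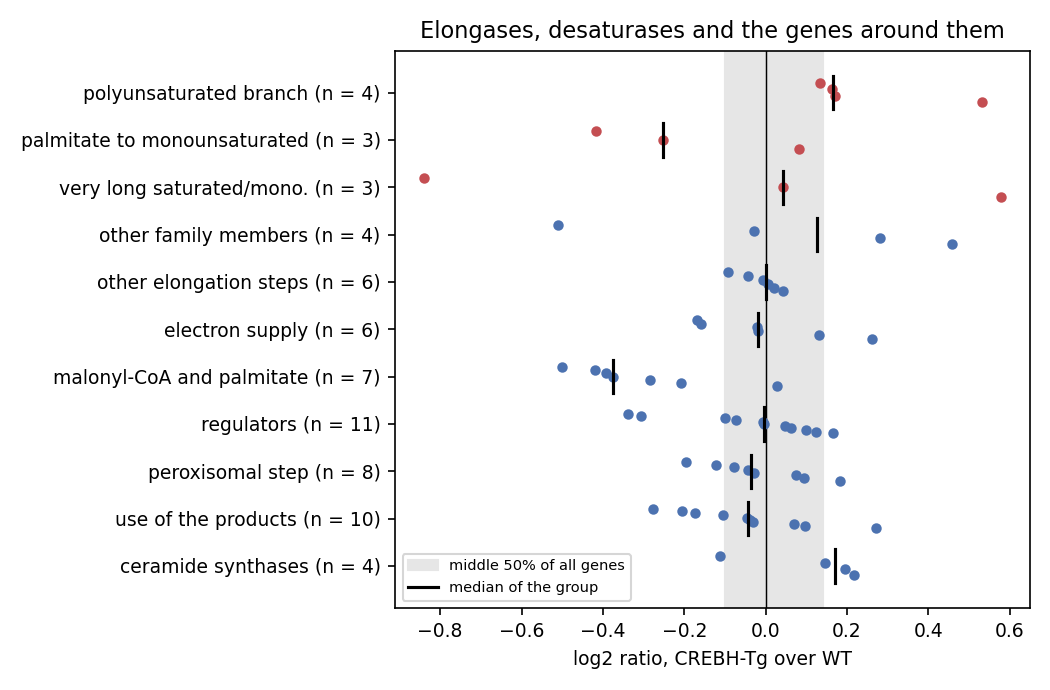
Log2 ratio of CREBH-Tg over WT (horizontal axis) of each measured gene, by group (vertical axis, with the number of genes); red points are the 10 elongases and desaturases by substrate, blue points the lists of genes around them, black bars group medians and the grey band the middle 50% of all genes. The malonyl-CoA and palmitate genes have the lowest median, -0.37, and the other elongation steps sit at 0.00015.

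Promoter sequence is shown for each gene of the polyunsaturated branch and the palmitate route that had a window: Elovl2, Elovl5 and Fads2, which were higher, and Elovl6, which was lower. RefSeq windows of 300 bases on GRCm38.p6, from 250 before to 50 after a transcription start, were matched for 6 of the 10 genes in 8 windows, Elovl1 and Elovl2 having 2 starts each. Capitals mark the searched motifs, described after the sequences. The window of the upstream of the 2 Elovl2 starts is chr13:41220354-41220653 on the minus strand, that of Elovl5 is chr9:77917115-77917414 on the plus strand, that of Fads2 is chr19:10101454-10101753 on the minus strand and that of Elovl6 is chr3:129532136-129532435 on the plus strand.
Elovl2: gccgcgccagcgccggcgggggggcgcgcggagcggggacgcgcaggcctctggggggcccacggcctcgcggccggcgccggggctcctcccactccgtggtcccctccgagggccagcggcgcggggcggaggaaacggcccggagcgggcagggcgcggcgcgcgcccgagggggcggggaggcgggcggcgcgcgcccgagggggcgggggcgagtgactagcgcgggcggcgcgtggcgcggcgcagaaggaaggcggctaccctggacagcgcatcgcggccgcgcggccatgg
Elovl5: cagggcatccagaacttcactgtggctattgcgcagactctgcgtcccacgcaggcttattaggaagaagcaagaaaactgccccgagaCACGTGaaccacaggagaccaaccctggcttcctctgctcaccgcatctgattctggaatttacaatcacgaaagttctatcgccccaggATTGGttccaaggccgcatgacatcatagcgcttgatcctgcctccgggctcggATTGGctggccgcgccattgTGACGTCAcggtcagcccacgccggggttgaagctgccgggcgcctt
Fads2: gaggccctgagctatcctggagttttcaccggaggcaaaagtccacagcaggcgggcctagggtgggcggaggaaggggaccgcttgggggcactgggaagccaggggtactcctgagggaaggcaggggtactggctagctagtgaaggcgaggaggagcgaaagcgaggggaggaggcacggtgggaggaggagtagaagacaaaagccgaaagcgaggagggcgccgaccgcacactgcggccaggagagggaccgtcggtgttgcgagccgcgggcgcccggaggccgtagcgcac
Elovl6: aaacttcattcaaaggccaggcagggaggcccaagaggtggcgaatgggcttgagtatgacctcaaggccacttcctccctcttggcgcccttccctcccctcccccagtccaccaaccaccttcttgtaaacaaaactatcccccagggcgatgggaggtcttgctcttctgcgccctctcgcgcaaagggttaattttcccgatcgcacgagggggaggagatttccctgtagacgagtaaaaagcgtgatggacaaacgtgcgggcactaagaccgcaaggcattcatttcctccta

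The 4 windows differ in composition and in motifs. Elovl2 is 84.7% G and C, Fads2 67.0%, Elovl5 57.7% and Elovl6 55.7%, against a median of 52.7% over 32851 windows. These windows leave out 1 chromosome, which holds none of the genes described. The motifs were searched on both strands. The Elovl5 window holds the E-box CACGTG, present in 7.15% of the 32851 windows, at positions -161 to -156 from the start. It holds the CRE core TGACGT, present in 7.51% of windows, on both strands in overlapping copies that make the palindrome TGACGTCA just after the start. It also holds 2 copies of the NF-Y box CCAAT on the minus strand, a motif found in 37.4% of windows, and 1 of the Elovl1 windows holds it as well. The Elovl2, Fads2 and Elovl6 windows shown hold none of these, nor does that of Elovl7, which is 74.0% G and C. The core of the sterol response element, TCACNCCAC (1.24% of windows), and the repeats DR1, AGGTCANAGGTCA (0.0396%), and DR4, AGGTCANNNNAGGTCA (0.0152%), were in none of the 8 windows. A match describes these letters only, and the array data do not measure binding.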

How the data were processed

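Pooled liver RNA of each genotype was labelled with Cy3 and read on 1 Agilent array, and per the file headers signals were extracted with Agilent Feature Extraction 10.10.1.1 on a design annotated on mm9. Per the file headers, the deposited intensity used here is the software's processed signal, background-subtracted and detrended per array, with no scaling from one array to the other. The authors' value table equalled it times 2.59 for WT and 2.68 for CREBH-Tg. The rule for those constants is unknown here.

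Here log2 intensity minus each array's 75th percentile was used. Control spots and 300 outlier spots were left out, and spots of a probe were averaged. Detection asked that more than 50% of a probe's spots be well above background (55.4% of non-control spots in WT, 58.3% in CREBH-Tg, none saturated). Transcript accessions without versions were matched to a RefSeq table of GRCm38.p6, which named 27233 of 55677 probes. Of several probes detected on both arrays, the brightest stood for the gene. No test was possible with 1 array per genotype, and the number of arrays limits the precision. Spot noise came from 276 probes. The gene steps were tested on simulated data.

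The 10 genes, the 8 pathway lists and the marker lists were chosen with earlier results of these data known. Named were all members and, in each pathway list, genes 1.5-fold apart or the 3 farthest from 0, and other genes were chosen after their values were seen. Alternatives tried were scaling on the median, on detected probes, by quantiles or by loess (span 0.3), the authors' table, normexp (offset 50) on the median spot signal, outlier spots kept, the mean over probes, dim probes kept or filtered more strictly (at 3 times the lowest signal well above background), and thresholds of 1.5-fold and 3-fold. The scanner software's error was added after the data were seen. Tools were R 4.3.3 with limma 3.58.1, and Python 3.11.15 with pandas 2.3.3, numpy 2.4.6, matplotlib 3.10.9 and statsmodels 0.14.6.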

Additional observations from a re-analysis of the deposited data

How the results depend on the processing

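Of the 10 genes, 9 kept the sign of their log2 ratio under all 10 alternatives (9 for Elovl7, which the stricter filter removed), and Elovl1 changed sign under quantile normalization and loess. For bright genes with 1 probe, part of the alternatives could not change a sign. Keeping outlier spots, averaging over probes and the filters on dim probes left their values unchanged, and the authors' table differs by a constant per array. No gene reached 2-fold under any of the alternatives. Scaling to the median brought Elovl6 within the scanner software's range, at -0.33. Scaling to the median moved the median log2 ratio to 0.196 for all 10 genes, 0.196 for the elongases and 0.196 for the desaturases, by adding the same amount to every gene. The elongase median was 0.033 under quantile normalization, 0.034 under loess and 0.171 under the stricter filter, which removed Elovl7. At 1.5-fold, 1 of the 10 genes was lower. The counts of all genes 2-fold higher and lower were 42 and 16 under normexp, 605 and 782 with no filter on dim probes and 55 and 32 with the stricter one. They were 323 and 309 at 1.5-fold and 30 and 26 at 3-fold. Signal over background limits Elovl7 alone among the 10. No paired analysis was possible because each genotype has 1 array.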
